A study of Homo sapiens with 2 samples.

Results

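The fibroblast growth factor (FGF) axis was examined in SAS cells, an established line from a human tongue squamous cell carcinoma, and in eSAS cells. eSAS is the population that remained after 5 rounds of enrichment for large spheroids from SAS cells on the removable mesh. The labels call it a population, while the methods also describe picking single cells to establish a line, so whether the array cells came from a single clone is not known here. The array RNA was taken from cells in log growth phase, and the medium used for that culture is not given in the sources used here. The spheroid-forming medium of the selection rounds contained epidermal growth factor and basic FGF protein, the product of FGF2, so eSAS cells had been exposed to both during selection, and the routine medium of SAS cells contained serum. Genes were taken by name from the array annotation: FGF followed by a number, FGFR1 to FGFR4 and FGFRL1 with any suffix, the FGFBP binding proteins, SPRY1 to SPRY4 and the SPRED genes. FGF3, FGF4 and FGF19 were left out. This gave 35 of the 30398 gene names on the array, with 61 of its 40814 usable probes. The name rule also caught FGFR1OP (now CEP43) and FGFR1OP2, whose names derive from fusion partners of FGFR1 and which are not receptors.

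Most FGFs are secreted ligands that bind heparan sulphate and FGF receptor tyrosine kinases on neighbouring cells. The receptors signal through the adaptor FRS2 to the RAS and MAP kinase cascade. Sprouty proteins are induced by this signal and restrain it, and Spred proteins restrain it as well. In stratified epithelia such as the tongue, the epithelial splice form of FGFR2 receives FGF7 and FGF10 from the underlying mesenchyme, while FGF11 to FGF14 stay inside the cell and act on ion channels.

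Each population was measured on a single array, which leaves no spread between cultures to test against, and the precision of all values is limited by that number of arrays. Differences are therefore given without p-values. On each array 43376 spots carried transcript probes, between 67.5% and 69.4% of these were well above background by the scanner software's criterion, and 0 were saturated. The values are processed signals as deposited, and log2 ratios of eSAS over SAS were taken after each signal was divided by the 75th percentile of its array (1242 for SAS and 1196 for eSAS). Several scales of error apply to a ratio. Replicate spots of the same probe had log2 ratios with an SD of 0.19 below a SAS signal of 100 (19 probes), 0.079 from 100 to 1000 (55 probes) and 0.043 above 1000 (137 probes). The software's own error model gave between 0.20 and 0.27 for the probes described here, and all 26659 probes measured on both arrays had an SD of 0.36. The first 2 are technical and leave out the variation between cultures. In such bulk RNA, fewer cells that express a gene and less RNA per cell cannot be told apart.

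All 14 of the epithelial and squamous markers found on the array, including TP63, KRT5, CDH1 and EPCAM, were well above background in both populations. Of the 9 fibroblast markers found, 6, among them COL1A2 and PDGFRA, were not well above background on either array, and THY1 alone was measured on both. COL1A1 was measured on the SAS array alone, at 15.2, and LUM on the eSAS array alone, at 29.6 against 3.21, at least 2.40-fold higher. Of the 5 endothelial markers 3, including PECAM1, were on neither array, VWF was measured on both, at 86.0 in SAS and 77.1 in eSAS cells, and CDH5 on the SAS array alone. Of the 6 leukocyte markers 4, including PTPRC and CD3E, were on neither array, while CD14 (215 and 233) and CD68 (717 and 752) were measured on both. Of the 14 epithelial markers, 10 had a log2 ratio below 0 and 4 above 0, where 50.3% of all genes were below 0. Their median log2 ratio was -0.43 against -0.0012 over all 19476 genes measured on both arrays. At 1.5-fold, 4 markers were lower (KRT5, KRT14, PKP1 and SFN), where 4.98% of all genes were. At the same fold 1 was higher (DSC3), where 3.19% of all genes were.

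The receptors FGFR1, FGFR2 and FGFR3 were lower in eSAS cells, while the ligands differed in both directions and a feedback inhibitor was higher. FGFR2 was lower in all 3 of its probes and FGFR3 in its single measured probe, both by between 1.54-fold and 1.63-fold. FGF2 was 1.57-fold and FGF5 more than 2-fold higher, but FGF18 was 2.22-fold lower, and FGF1, FGF8 and FGF12 were measured in SAS cells alone, at low signals. Of the inhibitors, SPRY1 was 2.18-fold higher. FGFBP1, FGFR4, SPRY2, SPRY4 and the Spred genes lay within 1.5-fold. Over the 29 probes measured on both arrays, the median log2 ratio was 0.0080 against -0.0039 over all such probes.

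At 1.5-fold, 6 of these 29 probes (20.7%) were lower in eSAS cells, where 4.89% of all 26659 probes were, and 4 (13.8%) were higher, where 3.09% of all probes were. With probes measured on 1 array included at their lower bound, 9 of 34 were at least 1.5-fold lower against 6.12% of all such probes, and 4 were higher against 4.43%. At 2-fold, 3 of the 29 probes were higher, where 0.938% of all probes measured on both arrays were (1.83% with bounds included), and 1 was lower, where 1.26% were (1.97% with bounds included). The 5 probes measured on 1 array all passed through the SAS array, and such a probe can only come out lower in eSAS cells or give no fold. Several of the 29 probes target the same transcript and are not independent.

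**Figure D1:**
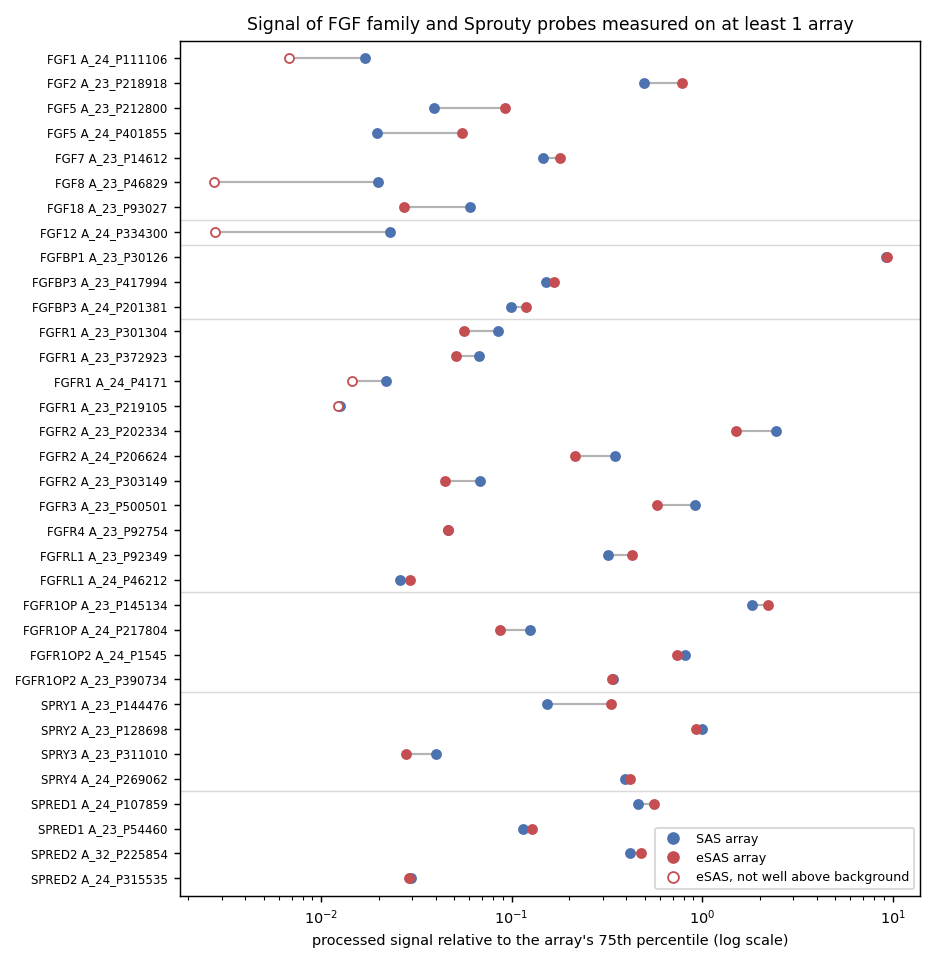
Processed signal relative to the 75th percentile of the array (log scale) for the 34 probes well above background on at least 1 array, SAS in blue and eSAS in red, grouped by role. Lines join the values of 1 probe, and open points were not well above background on the eSAS array. The FGFR1, FGFR2 and FGFR3 probes sit further left on the eSAS array, and FGF2, both FGF5 probes and SPRY1 sit further right.

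Of the 22 members with a measured probe, 6 had every probe measured on both arrays at least 1.5-fold apart in 1 direction. They were FGFR2, FGFR3 and FGF18 (lower) and FGF2, FGF5 and SPRY1 (higher). FGFR2 had 3 such probes and FGF5 had 2, while the others had 1 each, where no agreement between probes can be seen. Averaged per gene, the same 6 passed 1.5-fold, where 3.19% of all genes were higher and 4.98% lower. The sequences that precede the transcription starts of these 6 genes are shown so that the higher and the lower genes can be set side by side. They are the 250 bases before the most upstream RefSeq start of each gene, 5′ to 3′ on the gene's strand in GRCh38.p14. They lie at chr10:121598445-121598694 (minus strand), chr4:1793043-1793292, chr4:122826581-122826830, chr4:80266338-80266587, chr4:123396545-123396794 and chr5:171419397-171419646 (plus strand), and capitals mark the GC box letters GGGCGG on either strand.
FGFR2: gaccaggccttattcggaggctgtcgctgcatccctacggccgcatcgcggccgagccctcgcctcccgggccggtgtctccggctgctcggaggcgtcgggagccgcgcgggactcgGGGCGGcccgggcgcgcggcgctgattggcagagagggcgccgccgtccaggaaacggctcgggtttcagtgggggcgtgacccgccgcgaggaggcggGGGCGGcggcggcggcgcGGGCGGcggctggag
FGFR3: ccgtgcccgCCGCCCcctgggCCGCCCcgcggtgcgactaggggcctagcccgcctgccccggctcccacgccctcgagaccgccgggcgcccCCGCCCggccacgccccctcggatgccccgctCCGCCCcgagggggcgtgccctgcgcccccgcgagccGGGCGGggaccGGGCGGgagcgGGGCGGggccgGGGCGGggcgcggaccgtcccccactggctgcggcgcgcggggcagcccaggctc
FGF2: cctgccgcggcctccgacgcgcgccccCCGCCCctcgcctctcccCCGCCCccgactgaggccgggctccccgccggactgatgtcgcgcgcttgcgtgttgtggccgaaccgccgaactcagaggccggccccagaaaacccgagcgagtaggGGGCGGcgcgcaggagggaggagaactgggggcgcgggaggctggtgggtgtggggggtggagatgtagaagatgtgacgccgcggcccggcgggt
FGF5: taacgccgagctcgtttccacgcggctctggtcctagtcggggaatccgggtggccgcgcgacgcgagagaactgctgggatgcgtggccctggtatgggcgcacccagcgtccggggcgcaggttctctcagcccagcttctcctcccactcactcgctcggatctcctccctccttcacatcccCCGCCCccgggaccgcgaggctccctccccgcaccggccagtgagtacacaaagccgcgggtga
SPRY1: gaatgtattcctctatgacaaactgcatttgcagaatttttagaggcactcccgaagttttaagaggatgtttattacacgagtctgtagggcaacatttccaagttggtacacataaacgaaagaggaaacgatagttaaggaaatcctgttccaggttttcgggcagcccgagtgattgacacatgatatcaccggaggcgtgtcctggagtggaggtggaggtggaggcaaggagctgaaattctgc
FGF18: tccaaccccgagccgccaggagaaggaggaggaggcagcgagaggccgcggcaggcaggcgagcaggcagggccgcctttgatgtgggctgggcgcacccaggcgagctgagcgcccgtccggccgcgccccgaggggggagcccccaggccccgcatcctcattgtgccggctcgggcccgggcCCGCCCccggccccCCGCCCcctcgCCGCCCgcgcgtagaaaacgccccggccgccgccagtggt

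FGFR3 held 8 matches to the GC box letters, FGFR2, FGF2 and FGF18 held 3 each and FGF5 held 1, while SPRY1 held 0. The letters occur in 42.6% of the 35116 promoter windows of the same length. The GC content was 86.8% for FGFR3, 78.8% for FGF18, 78.4% for FGFR2, 75.2% for FGF2, 68.8% for FGF5 and 45.6% for SPRY1, where the median over all windows was 58.0%. The letters CCGGAA, the core bound by ETS factors, TGANTCA, the AP-1 site, and TATAAA, the TATA box, were not found on either strand of these 6 windows, where 14.5% and 6.6% of all windows hold the first and second of these and 3763 windows hold TATAAA. The table holds further starts for FGFR2, FGF5 and SPRY1 that are not shown.

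FGF2 encodes basic FGF, a ligand for several FGF receptors that lacks a classical secretion signal. Its probe, at 124038472 to 124038531 on chromosome 4 (hg18), was spotted 10 times on each array. The processed signal ran from 575 through a median of 624 to 633 on the SAS array, and from 863 through 936 to 991 on the eSAS array. All 10 spots were brighter on the eSAS array, but they repeat 1 RNA on each array and do not measure the spread between cultures. The log2 ratio was 0.65 ± 0.039 (SD, 10 spots of 1 probe), a 1.57-fold difference, with single spots between 0.59 and 0.70. Between 100 and 1000 on the SAS array, 2.22% of all probes were at least 1.5-fold higher. It was the member with the most spots, and its ratio stayed between 0.59 and 0.72 under every setting tried.

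**Figure D2:**
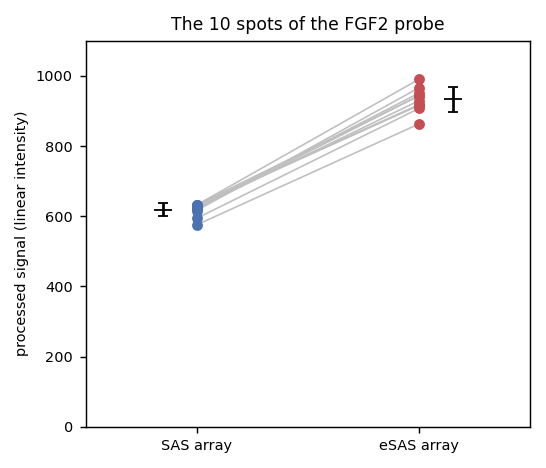
Processed signal (linear intensity) of each of the 10 spots of the FGF2 probe on the SAS and eSAS arrays, with lines joining the same position on both arrays and black marks giving the mean and SD over spots. The SAS spots lie between 575 and 633 and the eSAS spots between 863 and 991.

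FGF5, a ligand best known for ending the growth phase of the hair cycle, had 2 measured probes, both on chromosome 4. The probe from 81426830 to 81426889 had signals of 48.5 in SAS and 110.3 in eSAS cells, a 2.36-fold difference with a software error of 0.23 on the log2 ratio of 1.24. The probe from 81428270 to 81428329 had 24.4 and 65.7, a 2.79-fold difference with a log2 ratio of 1.48 and an error of 0.26. Both probes were brighter on the eSAS array, and both are dim: below a SAS signal of 100, 3.41% of all probes were higher by 2-fold or more. With no background correction the log2 ratios were 0.79 and 0.79, under 2-fold. Both probes stayed higher after normexp, a model-based subtraction of each spot's local background, but with values from 2.48 and 2.88 on mean pixels down to 0.57 (under 1.5-fold) and 0.71 when spots with a marked local background were left out of the fit. The third FGF5 probe was not well above background on either array.

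FGF18, a ligand that acts in bone and lung growth, went the other way. The signal of its measured probe was 75.2 in SAS and 32.7 in eSAS cells, a 2.22-fold lower value with a log2 ratio of -1.15 and a software error of 0.25. Below a SAS signal of 100, 1.68% of all probes were lower by 2-fold or more. This single dim spot had the lowest ratio among members measured on both arrays, and the second FGF18 probe was below background on both. The FGF18 ratio was -0.56 with no background correction, under 1.5-fold, and turned to 2.07 after normexp on mean pixels. It was -0.53, under 1.5-fold, when spots with a marked local background were left out of the normexp fit. FGF7, the keratinocyte growth factor, had 1 measured probe of 4, with signals of 181 and 214 and a log2 ratio of 0.30. The other 3 FGF7 probes were not well above background on either array. FGF7 has near-identical copies elsewhere in the genome, and which copy a probe reports is not known here.

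Some ligands were seen on the SAS array alone. FGF1, the ligand of all FGF receptors, had 1 such probe of 4, with a signal of 21.1 on the SAS array against 8.10 on the eSAS array, at least 1.34-fold lower. FGF8, an embryonic patterning ligand, had 24.8 against 3.27, at least 1.57-fold lower. The intracellular factor FGF12 had 28.6 against 3.31, at least 1.82-fold lower, and its other probe was below background on both arrays. These bounds use the lowest signal well above background on the eSAS array, 15.2, and the corresponding lowest signal of the SAS array was 12.8. They also depend on the background subtraction. With no background correction the log2 ratios were -0.040 for FGF1, -0.19 for FGF8 and -0.25 for FGF12, all under 1.5-fold. With spots of marked local background left out of the normexp fit they were -0.19, -0.52 and -0.54, also under 1.5-fold. No ligand was measured on the eSAS array alone. FGF6, FGF9, FGF10, FGF11, FGF13, FGF14, FGF16, FGF17, FGF20, FGF21, FGF22 and FGF23 were not well above background on either array, so the mesenchymal FGFR2 ligand FGF10 was among the ligands not detectable here.

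Binding proteins carry FGFs out of the extracellular matrix. FGFBP1, which releases FGF2 from heparan sulphate, had a signal of 11489 in SAS and 11125 in eSAS cells, a log2 ratio of 0.0080. Its difference was smaller than the 0.043 seen between replicate spots of that brightness. FGFBP3 had 189 and 199.9 at one probe and 123 and 143 at the other, with log2 ratios of 0.14 and 0.26. Both FGFBP2 probes were below background.

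FGFR2 is the main FGF receptor of squamous epithelium, and its 3 probes lie apart along chromosome 10 of hg18. The probe from 123227830 to 123227843 had 3029 in SAS and 1789.8 in eSAS cells, 1.63-fold lower. The probe from 123233207 to 123233266 had 431 and 258, 1.61-fold lower, and the probe between 123300946 and 123314047, whose ends are too far apart to lie in a single exon, had 84.9 and 53.2, 1.54-fold lower. All 3 were lower on the eSAS array by nearly the same factor, with a mean log2 ratio of -0.67 ± 0.045 (SD over 3 probes). The log2 ratio of -0.70 at the probe above 1000, a single spot, had a software error of 0.20. Replicate spots of that brightness had an SD of 0.043, and all probes measured on both arrays an SD of 0.36. Over all probes, 3.23% of those above 1000 were at least 1.5-fold lower, as were 5.92% from 100 to 1000 and 6.1% below 100. The files do not state which splice form a probe detects, so the epithelial and mesenchymal forms were not told apart.

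FGFR3, a receptor also found in epithelia, was lower as well. Its measured probe on chromosome 4, from 1780161 to 1780220, had 1132 in SAS and 696 in eSAS cells, 1.57-fold lower. The log2 ratio was -0.65 with a software error of 0.20. The second FGFR3 probe was below background on both arrays. FGFR1, the receptor more typical of mesenchyme, had 6 probes, with SAS signals of 105 or less. A probe with 105 and 67.3 was 1.51-fold lower, and one with 83.9 and 60.8 was 1.33-fold lower. Another had 27.2 in SAS cells and 17.4, not well above background, in eSAS cells, at least 1.51-fold lower. Its log2 ratio was -0.13, under 1.5-fold, with no background correction. A further FGFR1 probe, not well above background in eSAS cells, had nearly equal signals of 15.6 and 14.6 and gives no fold, and 2 were measured on neither array. Taking FGFR1, FGFR2 and FGFR3 together, all 6 probes measured on both arrays were lower, with log2 ratios from -0.70 to -0.41. These probes cover 3 genes, and 50.3% of all genes measured on both arrays had a log2 ratio below 0. Of all 9 receptor probes measured on both arrays, 6 were below 0 and 3 above.

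The remaining receptors did not share this direction. FGFR4, the main FGF receptor of liver, had 57.6 in SAS and 55.5 in eSAS cells, a log2 ratio of 0.00044. FGFRL1, which binds FGFs but lacks the kinase domain, had 396 and 514 at one probe and 32.3 and 34.9 at the other, with log2 ratios of 0.43 and 0.16. The squamous markers at least 1.5-fold lower, KRT5 (log2 ratio -0.63), KRT14 (-6.58 and -1.23 at its 2 probes), PKP1 (-0.83) and SFN (-0.59), differed in the same direction as FGFR1 to FGFR3. DSC3 differed in the opposite direction (0.70 and 0.75), and KRT8, KRT18 and EPCAM had mean log2 ratios of 0.12, 0.16 and 0.040. The part of these markers in the receptor values was not tested. After normexp on mean pixels of all spots, 2 of the 3 FGFR2 probes and both FGFR1 probes measured on both arrays turned direction. They came to 2.26, 0.58, 1.86 and 2.02, while the median of all probes moved from -0.0039 to 0.53. A further fit left out the 26 of 45015 spots with a marked local background, a setting chosen after the data were seen. The same FGFR2 and FGFR1 probes then stayed lower. They had -0.35, -0.53, -0.30 and -0.19, and the median of all probes was -0.0088. The FGFR2 probe at 3029 stayed between -0.76 and -0.66 under all settings. The FGFR3 probe lay between -0.70 and -0.19, and was under 1.5-fold after normexp on all spots. Without the marked spots in the fit the FGFR3 probe had -0.60, past 1.5-fold. With quantile normalization the FGFR1 probe at 105 (-0.56) and the FGFR2 probe at 84.9 (-0.58) came to just under 1.5-fold. With no background correction, the FGFR2 probe at 3029 and the FGFR3 probe were the 2 members that were still at least 1.5-fold lower.

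**Figure D3:**
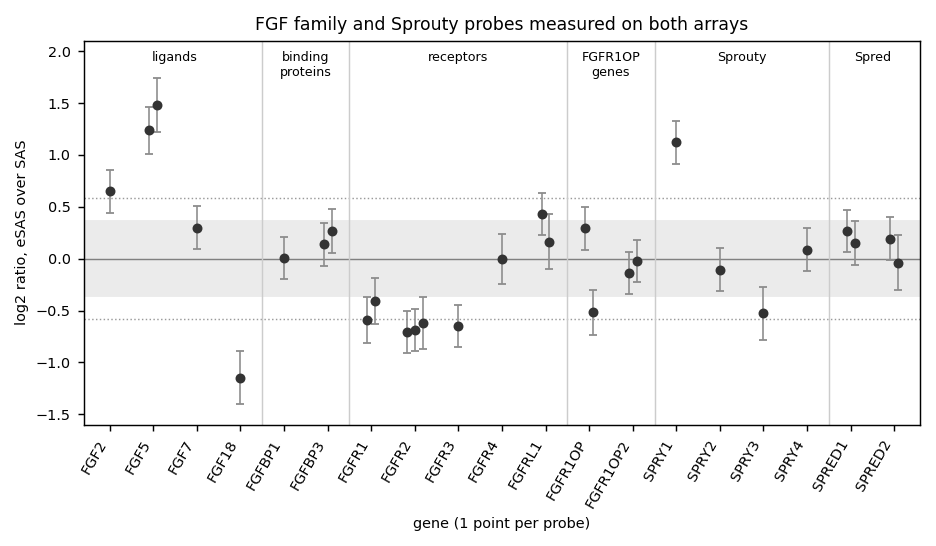
Log2 ratio of eSAS over SAS for the 29 probes measured on both arrays, 1 point per probe, with the scanner software's error as bars; the grey band is the SD of 0.36 over all probes and dotted lines mark 1.5-fold. The 3 FGFR2 probes lie between -0.70 and -0.62, and FGF5 and SPRY1 lie above 1.1.

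Sprouty proteins block receptor tyrosine kinase signalling upstream of MAP kinase. SPRY1, on chromosome 4 from 124543944 to 124544003, had a signal of 190.4 in SAS and 399 in eSAS cells, 2.18-fold higher with a log2 ratio of 1.12 and a software error of 0.21. Between 100 and 1000, 0.394% of all probes were at least 2-fold higher. Its single spot lies in row 501, within rows 450 to 510 that held 183 of the 194 spots marked non-uniform on the SAS array. The SPRY1 spot was not marked on either array, and the 8 nearest measured spots had a median log2 ratio of -0.095. The SD of its pixels over their mean was 0.21 in SAS and 0.17 in eSAS cells. With no background correction its log2 ratio was 0.96, under 2-fold. Without these rows SPRY1 has no value, and no second probe checks it.

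The other Sprouty genes did not follow SPRY1. SPRY2 had 1235 in SAS and 1106 in eSAS cells, a log2 ratio of -0.10. SPRY4 had 486 and 497, a log2 ratio of 0.087. SPRY3 had 49.6 and 33.2 at its measured probe, 1.44-fold lower, in the brightness range where replicate spots had an SD of 0.19. The Spred genes, whose proteins restrain the RAS and MAP kinase cascade, lay close to equal. SPRED1 had 142 and 152 at one probe and 574 and 666 at the other, with log2 ratios of 0.15 and 0.27. SPRED2 had 37.0 and 34.7 at one probe and 519.9 and 572 at the other, with log2 ratios of -0.037 and 0.19.

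FGF2 and SPRY1 are neighbours on chromosome 4, with their probes 505 kb apart. Within 3000 kb of the FGF2 probe, 21 other probes of 16 genes were measured on both arrays. Their median log2 ratio was -0.072 and their range was -0.43 to 1.05. Among them 1 was higher by 1.5-fold or more and 0 were lower, where 3.09% and 4.89% of all probes measured on both arrays were. The 2 probes between FGF2 and SPRY1 had 0.025 and 0.084, the latter for SPATA5. NUDT6, which is transcribed from the opposite strand and overlaps FGF2, had 443 in SAS and 405 in eSAS cells, a log2 ratio of -0.075. The genes around FGF2 and SPRY1 were mostly near equal, and the probe past 1.5-fold was ANKRD50, at 25.5 and 50.8 with a log2 ratio of 1.05.

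**Figure D4:**
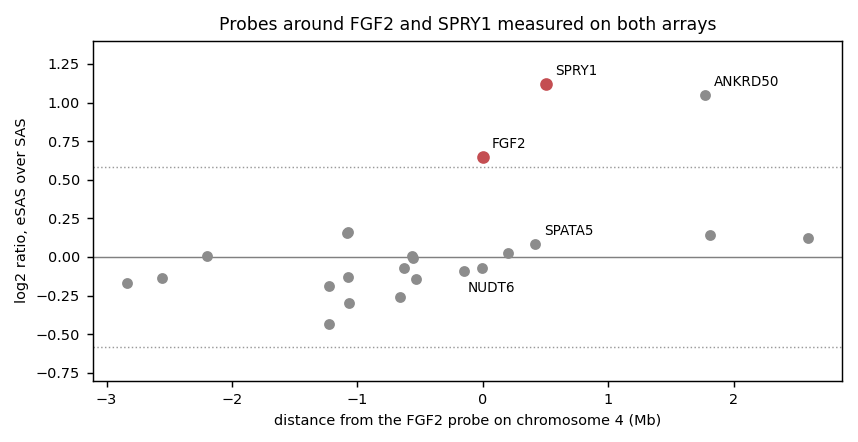
Log2 ratio of eSAS over SAS against distance from the FGF2 probe on chromosome 4 (Mb) for probes measured on both arrays, FGF2 and SPRY1 in red and other genes in grey; dotted lines mark 1.5-fold. NUDT6 and SPATA5 lie near 0 beside FGF2 and SPRY1.

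The wider pathway was read from a list of 61 genes, of which 45 were measured on both arrays. Their median log2 ratio was -0.040, with 18 above 0 and 27 below. Averaged per gene, 1 was higher and 2 were lower by 1.5-fold or more, where 3.19% and 4.98% of all 19476 genes were, so the list as a whole lay near the background.

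The enzymes that build and edit heparan sulphate, the co-receptor chain of FGF signalling, had mean log2 ratios below 0 in 9 of 10 genes, where 50.3% of all genes did, with a median of -0.27. At 1.5-fold 1 of the 10 was lower, where 4.98% of all genes were. NDST2 (-0.026), EXTL3 (-0.043) and EXT2 (-0.076) lay near 0. SULF2, which removes 6-O-sulphate groups from heparan sulphate outside the cell, had 21259 in SAS and 10914 in eSAS cells, 1.88-fold lower with a log2 ratio of -0.91. NDST1, which starts chain sulphation, had -0.61 at one probe and -0.21 at the other, and EXT1, a chain polymerase, was the highest with a mean of 0.026. Of the 6 core proteins, 4 had a ratio above 0 and 2 below. GPC4 had 137 and 71.4, 1.85-fold lower, and HSPG2 had 31.3 and 45.5, 1.51-fold higher. SDC4 had 0.33 and 0.36 at its 2 probes. The co-receptors KL and KLB, which endocrine FGFs need, were not well above background on either array.

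Below the receptor, all 18 adaptor and relay genes found on the array were measured, with 8 above 0 and 10 below. Averaged per gene, 0 reached 1.5-fold, where 3.19% of all genes were higher and 4.98% lower, so this count lay near the background. The 18 genes ran from PLCG1 at -0.30 to SHC1 at 0.31, and FRS2, the adaptor specific to FGF and a few other receptors, had -0.11. The transcripts that FGF signalling induces were also near equal, with 4 of 10 above 0, 6 below and a median of -0.042. DUSP6, the MAP kinase phosphatase often read as an FGF target, had 20309 in SAS and 18813 in eSAS cells, a log2 ratio of -0.056. ETV4 had 0.17 and 0.19 at its probes and ETV5 had -0.054 and -0.069, while EGR1, at -0.25, was the lowest and SPHK1, at 0.43, the highest. ETV1 was measured on the eSAS array alone, at 26.2 against 8.34, at least 2.12-fold higher. Of the membrane modulators, IL17RD, an FGF receptor antagonist also called SEF, had 0.28 and 0.40. FLRT2 was measured on the SAS array alone, at 69.1 against 3.09, at least 4.38-fold lower.

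**Figure D5:**
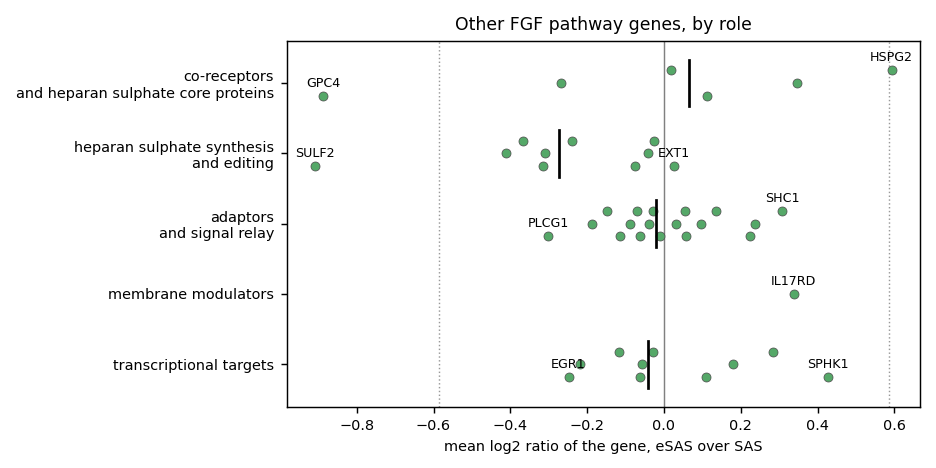
Mean log2 ratio of eSAS over SAS for each of the 45 other FGF pathway genes measured on both arrays, by role, with black bars at the median of roles that have more than 1 gene and dotted lines at 1.5-fold. The adaptors and relay genes lie between -0.30 and 0.31, and SULF2 and GPC4 lie near -0.9.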

How the data were processed

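RNA from SAS and eSAS cells was hybridised to 1-colour arrays, 1 per population. The authors deposited linear intensity values from Agilent Feature Extraction 10.7.3.1, whose processed signal is background-subtracted and detrended within each array and has no scaling between arrays. Their series table was equal to the processed signal for all 45015 spots. Signals were divided by the 75th percentile over non-control spots and log2 transformed, and replicate spots were averaged. Spots that the software marked as non-uniform or as outliers of their replicates on either array were dropped. A probe was measured on an array when more than 50% of its spots were well above background. Where 1 array was dim, the higher of the probe's own signal and the lowest signal well above background replaced it, and the fold is a bound.

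The members and gene lists were chosen with earlier results of these data known. Every member is accounted for; of the pathway list, genes with a probe at least 1.5-fold apart and the highest and lowest gene of each role are named, and SDC4, FRS2, DUSP6, ETV4, ETV5, KL, KLB, NDST2, EXTL3, EXT2, the cell type markers, NUDT6, SPATA5 and ANKRD50 were named after their values were seen. With 1 array per group there were no residual degrees of freedom. The counting at 2-fold was tested on simulated data with larger changes planted in brighter probes. The planted changes did not cover the 1.5-fold calls, dim probes or bounds. Alternatives covered the scaling, the background correction, marked spots, dim probes and the unit of counting. Ratios were computed in Python 3.11.15 and normexp in R 4.3.3 (limma 3.58.1). Positions of probes come from the array annotation (hg18), and promoter sequences are from RefSeq, which held all 6 genes shown.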

Additional observations from a re-analysis of the deposited data

How the results depend on the processing

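A single value was taken as unmoved when it shifted by less than the replicate spot SD of 0.075, and a count when it stayed within 1.5 times. With quantile normalization, median centring, no scaling, the authors' series table, and marked spots kept, all 33 member ratios stayed unmoved in this sense, as did the counts and medians. Probes required on both arrays left 29 ratios, all unmoved. The number at least 1.5-fold lower went from 9 to 7 with median centring, where the FGFR1 probes at 105 (-0.56) and 27.2 (-0.56) fell under 1.5-fold, and to 6 with quantile normalization, where the FGFR2 probe at 84.9 (-0.58) did as well. It was also 6 with probes required on both arrays. Signs changed under scaling only at ratios near 0, for FGFR1OP2 (median centring) and for FGFBP1 and FGFR4 (no scaling). Leaving out rows 450 to 510, a setting chosen after the data were seen, left 29 ratios, all unmoved. It removed SPRY1, the FGFBP3 probe at 189 and both FGFR1OP probes.

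After normexp with mean pixels, 16 member probes were at least 2-fold higher and 0 lower, 22 were 1.5-fold higher and 1 lower, and the medians were 1.73 for member probes and 0.26 for the other pathway genes, where all probes had a median of 0.53. With median pixels the counts were again 16, 0, 22 and 1, and the medians were 1.70 and 0.25. With either kind of pixel, 10 of 29 ratios changed sign. Those that were at least 1.5-fold apart beforehand, with mean and then median pixels, were 1.86 and 1.84 for FGFR1 (the probe at 105), 2.26 and 2.25 for FGFR2 (the probe at 84.9), 0.58 and 0.58 for FGFR2 (the probe at 431) and 2.07 and 2.03 for FGF18. The others, with mean pixels, were FGFR1 (the probe at 83.9) at 2.02, SPRY3 at 2.39, FGFR1OP at 1.81, SPRED2 at 2.48, FGFR1OP2 at 0.69 and FGFBP1 at -0.53. Fitted without spots whose local background was marked, also chosen after the data were seen, normexp gave 0 member probes at 2-fold in either direction and 2 at least 1.5-fold lower, and the sign changed at FGFR4 alone, to -0.0070. With no background correction, 0 were 2-fold higher, 0 were 2-fold lower and 2 were lower by 1.5-fold or more, and the sign changed for FGFBP1 and SPRED2, both near 0. With no filter on dim probes, 6 were at least 2-fold and 14 at least 1.5-fold lower, and the member median was 0.087. Without a lower limit, 4 were at least 2-fold lower. Under these settings and the scalings above, the share of all probes past each fold was not computed. These counts are therefore not read as a result about the members. Counting genes gave 3 at least 1.5-fold lower, where 4.98% of all genes measured on both arrays were. For these shifts the cause was not tested, apart from gene counting, which joins the probes of a gene, and the dim filters, which change the probes counted.

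Slide was not fitted as a block, because the arrays share 1 slide, and there was no replicate to leave out. No paired analysis was possible because each condition has 1 array. Replicate spots varied most below a SAS signal of 100. In that range lie FGF5, FGF18, SPRY3, FGFR4, 5 of the 6 FGFR1 probes and the FGFR2 probe at 84.9. So do the FGFRL1 probe at 32.3, the SPRED2 probe at 37.0 and the FGF1, FGF8 and FGF12 probes measured in SAS cells alone.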

Other observations

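Probes of the same gene disagreed at FGFR1OP, now CEP43, a centrosomal protein. One probe had 2253 in SAS and 2656 in eSAS cells, a log2 ratio of 0.29, and the other had 154 and 104, a log2 ratio of -0.52. Both spots lie in rows 450 to 510. FGFR1OP2 had 423 and 400.5 at one probe and 1012 and 885 at the other, with log2 ratios of -0.024 and -0.14.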
